A study of Mus musculus with 3 samples.

Results

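Mucosal fibroblasts of the inflamed mouse colon were identified by transcripts of Adamdec1, Ccl11, Col15a1, Lepr and Postn, and they numbered 1608 of the 19109 barcodes kept from 3 single-cell RNA libraries. A barcode (1 droplet, ideally 1 cell) was kept with at least 500 transcript counts (unique molecular identifiers, UMIs), at least 200 genes and at most 10% mitochondrial UMIs. A member carried at least 1 UMI of Col1a1, Col3a1 and Dcn together, and at least 2 UMIs of the 5 mucosal genes, more than of the deep-layer genes Dpt, Fbln1, Thbs2, Cilp and Fibin. It had no Ptprc (CD45), at most 1 UMI of Epcam and Krt8, at most 1 of Myh11 and Actg2, and at most 3 of S100a8 and S100a9. The rat IgG library held 504 members, the DATK32 library 311 and the MECA-367 library 793. Members were thus chosen by their measured counts of these genes, and the levels of these genes describe the rule and are not a result. The words mucosal and deep-layer name the rule, since no position in the tissue was measured.

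All 3 groups were C57/BL6J mice that drank 1.5% dextran sulfate sodium (DSS), a polymer that injures the colonic epithelium, for 7 days and plain water for 3 days. Each group received 250 µg of 1 rat antibody intraperitoneally, 3 times a week: an isotype control (rat IgG), clone DATK32 or clone MECA-367. Each group is 1 library, so no difference has a replicate check and no p-value is given; intervals cover counting error only. The ages of the mice and how many were pooled per library are not given in the sources used here. The labels describe lamina propria cells of the large intestine sorted as viable and CD45+, whereas the members have 0 UMIs of the CD45 gene by rule and express fibroblast genes. In the labels, ontamalimab is the drug matched to DATK32, and vedolizumab the one matched to MECA-367. Clone DATK32 is generally known to bind the integrin alpha4beta7 and clone MECA-367 to bind MAdCAM-1, the reverse of that pairing, so the groups are named by clone only.

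In the colon, fibroblasts of the lamina propria lie between the epithelium and the muscle, and differ by depth. Cells under the epithelium, which include telocytes, are known for Wnt5a and bone morphogenetic proteins (BMPs) that act on the crypt, while deeper cells hold much of the fibrillar matrix. In colitis, fibroblasts are also known as sources of chemokines that draw leukocytes. Adamdec1 encodes a secreted metalloproteinase-like protein of the gut mucosa, Ccl11 encodes eotaxin, a chemokine for eosinophils, and Col15a1 a collagen of the basement membrane zone. Lepr encodes the leptin receptor and Postn the matrix protein periostin. C4b encodes complement component C4, and Serpina3n an acute phase inhibitor of serine proteases.

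Members were shallowest in the rat IgG library, which bears on every comparison. The median member had 935 UMIs with rat IgG, 1274 with DATK32 and 1782 with MECA-367. UMIs of all members summed to 558854, 459630 and 1577686 in that order. No barcode sequence was shared between members of different libraries. Results were therefore repeated after thinning barcodes at random to 1000 UMIs before the rule was applied. Barcodes under 1000 UMIs were left out there. A further repeat used only members of 1000 to 2000 UMIs. Values below are in the order rat IgG, DATK32, MECA-367 unless stated, and levels are in CPM, the summed UMIs of a gene scaled to the same total over all genes in the members of each library.

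MECA-367 held the largest share of mucosal fibroblasts. They made up 6.84% of kept barcodes in rat IgG (exact Clopper-Pearson 95% interval 6.28% to 7.44%), 5.31% in DATK32 (4.75% to 5.92%) and 13.5% in MECA-367 (12.6% to 14.4%). The MECA-367 share was 1.97 times the rat IgG share and 2.53 times the DATK32 share, with intervals apart. DATK32 and rat IgG differed by less than the 1.5-fold set for a call, at 0.777 times. Thinned to 1000 UMIs, without shallower barcodes, the shares were 4.82%, 5.64% and 16.2%, so DATK32 then lay above rat IgG. The MECA-367 share was then higher by 1.75 on the log2 scale over rat IgG, against 0.98 unthinned. Leaving out barcodes under 1000 UMIs or 500 genes, with no thinning, gave 4.65%, 5.51% and 15.1%. Of the members, 223 of 504, 220 of 311 and 701 of 793 had at least 1000 UMIs. Fewer cells of this kind and fewer of their transcripts passing the filter cannot be told apart in these files. The labels describe a sort for CD45+ cells, while members have no UMI of the CD45 gene. The part of that sort in these shares, and in the share within fibroblasts below, was not tested.

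The same order was seen within fibroblasts alone, where the rule leaves out barcodes with a Ptprc UMI or over 1 UMI of Epcam and Krt8. That does not exclude every leukocyte or epithelial cell, since some members held much immunoglobulin RNA, as given below. Deep-layer fibroblasts, found by the mirrored rule, numbered 627, 545 and 317. Mucosal fibroblasts were 44.6% of both kinds in rat IgG (41.6% to 47.5%), 36.3% in DATK32 (33.1% to 39.7%) and 71.4% in MECA-367 (68.7% to 74.1%). The MECA-367 share was 1.60 times that of rat IgG and 1.97 times that of DATK32, and no 2 of the 3 intervals overlapped. After thinning the shares were 42.9%, 40.0% and 73.7%. With the mitochondrial limit at 5% they were 54.8%, 48.7% and 79.3%, and the ratio of MECA-367 to rat IgG, 0.53 on the log2 scale, no longer reached 1.5-fold.

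**Figure D1:**
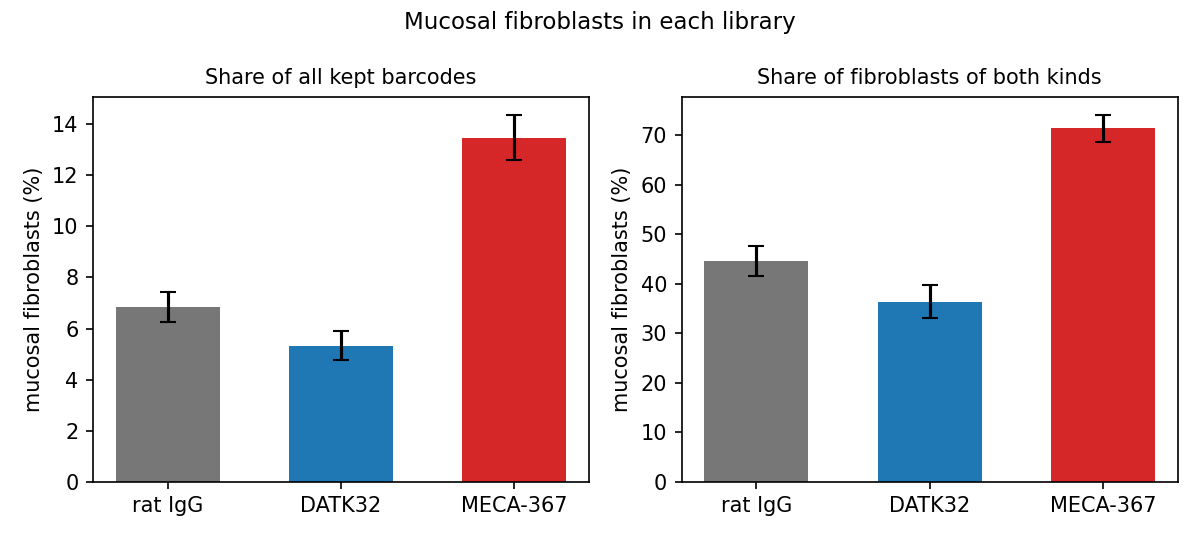
Mucosal fibroblasts as a percentage of kept barcodes (left) and of mucosal and deep-layer fibroblasts together (right), 1 bar per library, with exact 95% binomial intervals. MECA-367 stands above both other libraries in both panels, at 13.5% and 71.4%.

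At the edge of the rule, 49 members had a sum of exactly 2 UMIs of the mucosal genes and 39 had 3, while 44 barcodes just outside had a sum of 1 and 39 tied with the deep-layer genes. Another 772 barcodes had enough mucosal UMIs but failed a different condition. Of the members, 1328 had at least 1 UMI of a deep-layer gene, 77 had no Adamdec1 UMI and 243 had Adamdec1 as their only mucosal gene. Barcodes left out for over 10% mitochondrial UMIs that otherwise met the rule numbered 25, 11 and 20.

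The genes that chose the members describe them as follows. Adamdec1 stood at 10933, 8089 and 12648 CPM in members against 99.1, 95.5 and 85.4 in deep-layer fibroblasts. Thinned to 1000 UMIs, with shallower cells left out, 89.2%, 80.9% and 97.1% of members had an Adamdec1 UMI, and 0.772%, 0.284% and 1.16% of leukocytes. Members held 74.1%, 69.8% and 76.8% of all Adamdec1 UMIs of their library. Postn stood at 1872, 1421 and 1473 CPM and Ccl11 at 739, 1316 and 1222 CPM. Col15a1 was even across libraries, at 320, 313 and 310 CPM, and Lepr stood at 199, 157 and 219 CPM. Ccl11 was not exclusive to members, at 297, 459 and 577 CPM in deep-layer fibroblasts, and 41.3%, 45.5% and 48.4% of members at 1000 UMIs had a Ccl11 UMI.

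C4b and Serpina3n are named with these cells but were not in the rule. C4b was higher in members than in deep-layer fibroblasts in each library, at 345, 548 and 685 CPM against 73.6, 95.5 and 218. Serpina3n did not mark them: its 1814, 2698 and 3365 CPM in members stood beside 1898, 1682 and 2735 in deep-layer fibroblasts. Dcn, the matrix proteoglycan decorin, was lower in members, at 4085, 4321 and 5110 CPM against 9998, 9505 and 11522. Unlike C4b and Serpina3n, Dcn is counted in the rule of both kinds, so its levels are a description only.

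Apart from immunoglobulin, each list of other cell types' markers summed to under 0.5% of members' UMIs in every library. Contractile and smooth muscle genes were among the largest, at 0.3496%, 0.3296% and 0.2316%. Macrophage and monocyte markers summed to 0.147%, 0.170% and 0.239%, and reticular and lymphoid stroma markers to 0.1517%, 0.1797% and 0.1443%. Markers of interstitial cells of Cajal summed to 0.0811%, 0.0962% and 0.0701%. Pericyte markers summed to 0.038%, 0.042% and 0.027%, vascular endothelial markers to 0.011%, 0.014% and 0.009%, and enteric glia markers to 0.024%, 0.026% and 0.030%. Epithelial markers summed to 0.058%, 0.031% and 0.028%, and 6 of 9 mesothelial and 5 of 10 glial markers were at 0 in members of every library. Immunoglobulin constant genes summed to 1.80%, 0.574% and 0.470%, with 13, 2 and 6 members above 0.5% and the highest single members at 53.2%, 44.3% and 42.3%. Doublet calling left these barcodes in. Madcam1, which encodes the addressin MAdCAM-1, had 0 UMIs in members of every library, where 3 counts would be 5.37, 6.53 and 1.90 CPM.

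Compared with deep-layer fibroblasts, members were higher for telocyte markers and for BMP and Wnt ligands. Of 8654 genes measured in both, 180 (2.08%) were at least 2-fold higher in all 3 libraries with exact Poisson 95% intervals apart, and 176 (2.03%) lower; the rule used this same contrast, so these counts describe it. Thinning left 104 higher and 100 lower. Of 31 measured genes of the Wnt, R-spondin and BMP pathways, 11 were higher and 2 lower. Of 13 measured telocyte markers, 9 were higher and none lower.

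BMP ligands were higher in members. Bmp4 was at 682, 537 and 498 CPM in members against 167, 190 and 158 in deep-layer fibroblasts, and Bmp5 at 499, 326 and 359 against 32.6, 39.2 and 30.1. Bmp2, Bmp3 and Bmp7 were higher as well. Among Wnt ligands, Wnt4 stood at 161, 194 and 156 CPM against 17.0, 27.5 and 1.58, and Wnt5a at 317, 187 and 165 against 142, 88.9 and 77.5. Ptch1, the hedgehog receptor and a hedgehog target, was at 335, 318 and 340 CPM against 42.5, 57.5 and 41.1. Id1 and Id3, which respond to BMPs, were higher too. Frzb and Gas1 were lower. Foxl1, a telocyte transcription factor, was too rare to place, with 8, 10 and 18 UMIs in all members.

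The 12 genes set apart most in the higher direction were Emid1, Agt, Casq2, Ednrb, Sema3f, Cxcl14, Wfdc1, Chp2, Col6a4, Rbp4, Pdlim3 and Sox6. Agt, angiotensinogen, stood at 132, 100 and 183 CPM against 2.83, 3.92 and 4.75, and Rbp4, the plasma carrier of retinol, at 245, 315 and 324 against 25.5, 27.5 and 26.9. Ednrb, an endothelin receptor, was at 172, 150 and 165 CPM against 7.08, 10.5 and 11.1. The EGF-family ligand Ereg was also higher, at 769, 988 and 1522 CPM against 187, 102 and 226, and so were Fgf9, Fgf10, Igfbp3, Igfbp5 and Nrg1. Collagens split: Col4a5, Col4a6, Col6a4, Col12a1 and Col18a1 were higher, and Col6a3 and Col8a1 lower. Of 32 matrix glycoproteins and crosslinking enzymes 3 were higher and 1 lower, and of 16 basement membrane genes 3 were higher and none lower.

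In the lower direction the rule named Hp, Epha3, Ank1, Cox8b, Ptn, Spock2, Syn2, Adra1a, Pdgfrl, Car8, Abcg1 and Smoc2. Hp, haptoglobin, was at 3.58, 10.9 and 61.5 CPM in members against 1077, 1397 and 2713. Ptn, the growth factor pleiotrophin, was at 8.95, 15.2 and 17.1 CPM against 750, 735 and 520. Epha3 and Adra1a had 0 UMIs in members of every library, against 73.2 and 40.5 CPM in DATK32 deep-layer fibroblasts. Among other listed genes, complement C3 was at 243, 331 and 413 CPM against 1531, 1560 and 3217, and the proteoglycan gene Lum at 537, 561 and 354 against 4024, 3807 and 3458.

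**Figure D2:**
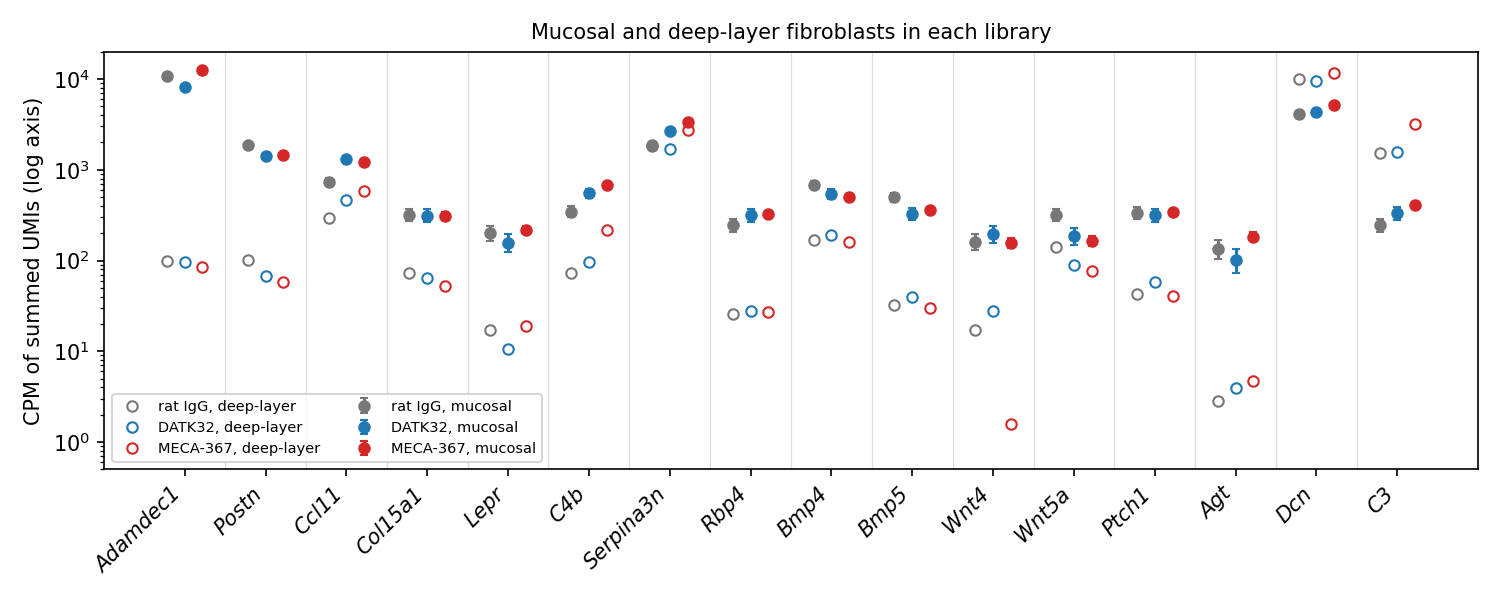
CPM (log axis) of summed UMIs in mucosal (filled, with exact Poisson 95% intervals) and deep-layer fibroblasts (open) of the 3 libraries. Adamdec1 lies near 10933, 8089 and 12648 CPM in members and near 100 or below in deep-layer cells, whereas Serpina3n overlaps and Dcn and C3 lie higher in the deep-layer cells.

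Members were not uniform, and Ccl11 divided them. Among members thinned to 1000 UMIs (223, 220 and 701), those with a Ccl11 UMI were compared with those without. Of 3466 measured genes, 6 (0.173%) were at least 2-fold higher in all libraries and 27 (0.779%) lower, which describes a division of these cells by a rule gene and is no test. Eln, Mgp, Grem1, Serpina3n, Serpina3m and Sfrp1 were higher with Ccl11. Grem1 encodes a secreted BMP antagonist and stood at 511, 860 and 271 CPM with Ccl11 against 137, 325 and 110 without. Serpina3n was at 3750, 4690 and 4631 CPM against 1244, 1233 and 2003; reads of the near-identical Serpina3 genes may be split among them.

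Several telocyte and contractile genes were among the 27 that were higher without Ccl11. Wnt5a stood at 550, 333 and 271 CPM without Ccl11 against 76, 40 and 47 with it, and Ogn, osteoglycin, at 1603, 1017 and 1373 against 326, 230 and 112. Sox6, Bmp3, Bmp7, F3, Pdgfra and Ednrb went the same way. So did Acta2, smooth muscle actin, at 786, 700 and 229 CPM against 196, 80 and 77, and Tagln, Myl9 and Tpm2. Bmp5 and Mylk did not pass the fold, with log2 ratios of −0.67 in rat IgG for Bmp5 and −0.98 in MECA-367 for Mylk. Igkc was among the 27 as well, at 7412, 2083 and 2185 CPM without Ccl11 against 2011, 420 and 236 with it. The part of Igkc in the division was not tested. Adamdec1 did not pass the fold, at 9427, 7833 and 12906 CPM without against 8772, 9610 and 13257 with Ccl11. Dividing the members by Postn set no gene apart (0 of 3466 in either direction).

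**Figure D3:**
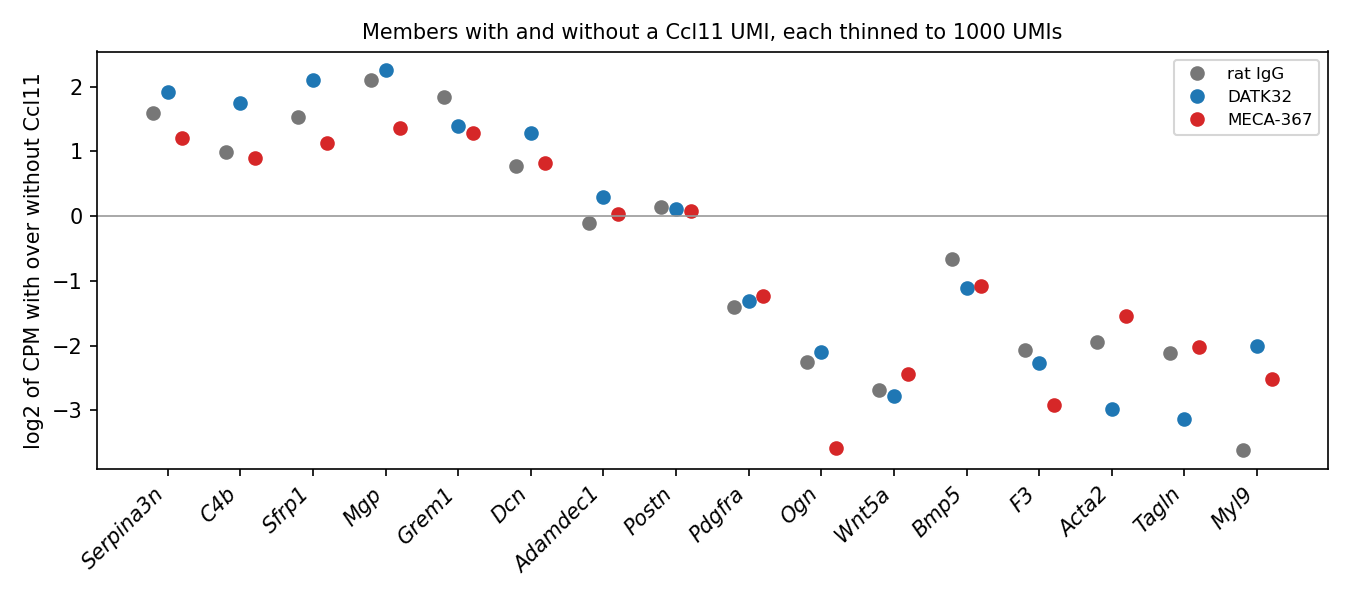
Log2 ratio of CPM between members with and without a Ccl11 UMI, all thinned to 1000 UMIs, 1 point per library. In every library Serpina3n, C4b, Sfrp1, Mgp, Grem1 and Dcn lie above 0 and Pdgfra, Ogn, Wnt5a, Bmp5, F3, Acta2, Tagln and Myl9 below it, with Adamdec1 and Postn near 0.

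A second division, chosen after the first was seen, used 6 subepithelial genes: Foxl1, Wnt5a, Bmp5, Bmp7, Sox6 and F3. Of the thinned members, 47.5% in rat IgG (40.8% to 54.3%), 38.2% in DATK32 (31.7% to 44.95%) and 42.4% in MECA-367 (38.7% to 46.1%) had a UMI of any of them, with overlapping intervals. Of 3461 measured genes 14 (0.405%) were higher in these cells and 3 (0.0867%) lower. Ednrb, Procr, Ogn, Aldh1a1, Pdlim3, Pcsk6, Rbp4, Pdgfra and Bmp2 were among the higher, and Adam23, Grem1 and Mgp were the lower ones. Of the BMP antagonists, Nbl1 was among the higher genes and Grem1 among the lower.

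Between MECA-367 and rat IgG, NF-kappa-B response and acute phase genes were more often higher than lower in MECA-367, and contractile genes more often lower. Inflammatory cytokine and prostaglandin genes were higher for 3 of 19 measured and lower for 1, with a median log2 ratio of 0.033. A gene counts here as higher or lower at 1.5-fold or more with Poisson intervals apart. The lists share genes, so their counts are not independent. Ccl2 and Cxcl1 are in the NF-kappa-B and chemokine lists, and Cxcl10 is in the chemokine and interferon-stimulated lists. Of 6418 genes measured (at least 50 UMIs over the 3 libraries), 210 (3.27%) were higher in MECA-367 and 274 (4.27%) lower, 7.54% in either direction, and the median log2 ratio of all was −0.09. Scaling by trimmed means (TMM) in place of totals moved that median up by 0.12 and gave 333 higher and 166 lower, so the share of calls that were higher went from 43.4% to 66.7%. Each library is scaled to its own members' total.

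NF-kappa-B response genes were higher in MECA-367 for 11 of 22 measured and lower for none, with a median log2 ratio of 0.52. They were Ccl2, Cxcl1, Ier3, Irf1, Sod2, Nfkbia, Nfkbiz, Icam1, Birc3, Tnfaip3 and Ptgs2. Ccl2, a monocyte chemokine, stood at 347 CPM in rat IgG (300 to 400), 646 in DATK32 (575 to 724) and 1007 in MECA-367 (958 to 1058), 1.53 higher on the log2 scale in MECA-367 than in rat IgG. Cxcl1, a neutrophil chemokine, was at 451, 729 and 1086 CPM (log2 ratio 1.26). Irf1, an interferon-responsive transcription factor, was at 336, 431 and 725 CPM and the adhesion gene Icam1 at 374, 374 and 691. At members of 1000 to 2000 UMIs the list's median was 0.83. Deep-layer fibroblasts showed a like order for Ccl2, at 262, 315 and 650 CPM, and a smaller spread for Icam1, at 229, 229 and 275; the difference between the 2 kinds of fibroblast was not tested.

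The upstream sequences of Cxcl1, Icam1 and Irf1 from this list, and of the chemokine gene Cxcl10, all higher in MECA-367, are shown as the last 150 bases before the start that RefSeq gives, on GRCm38.p6. Capitals mark matches to a motif on either strand: NF-kappa-B, the STAT motif TTCNNNGAA, or the AP-1 motif TGANTCA.
Cxcl1, chr5:90891095-90891244, plus strand: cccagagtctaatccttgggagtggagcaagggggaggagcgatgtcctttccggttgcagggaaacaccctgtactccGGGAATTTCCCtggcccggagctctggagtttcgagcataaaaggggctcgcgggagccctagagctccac
Cxcl10, chr5:92348890-92349039, minus strand: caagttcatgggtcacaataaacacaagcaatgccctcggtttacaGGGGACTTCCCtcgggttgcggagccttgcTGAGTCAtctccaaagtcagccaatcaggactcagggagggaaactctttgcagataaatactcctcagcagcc
Icam1, chr9:21015790-21015939, plus strand: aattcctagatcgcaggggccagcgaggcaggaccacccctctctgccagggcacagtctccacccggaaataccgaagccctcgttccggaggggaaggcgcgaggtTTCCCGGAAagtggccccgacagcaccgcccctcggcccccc
Irf1, first of 2 starts, chr11:53769864-53770013, plus strand: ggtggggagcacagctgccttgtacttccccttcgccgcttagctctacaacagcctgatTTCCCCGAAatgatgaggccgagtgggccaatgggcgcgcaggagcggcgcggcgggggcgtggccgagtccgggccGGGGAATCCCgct

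Cxcl1 and Cxcl10 each held 2 NF-kappa-B matches shifted against each other by 1 base, and Cxcl10 also 1 AP-1 match. Irf1 held 1 NF-kappa-B match and 1 STAT match, and Icam1 1 STAT match. In windows of this length 4.60% of the 32851 RefSeq promoters in the table had an NF-kappa-B match, 4.09% a STAT match and 4.24% an AP-1 match. Of 24 listed NF-kappa-B genes 19 were in the table, and 12 of those (63.2%) had a match within 250 bases before a start, against 8.23% of all gene symbols; the list was drawn from genes known for that response. For interferon-stimulated genes and the interferon-stimulated response element the shares were 19 of 39 (48.7%) and 3.46%. Of 20 genes looked up, 11 were in the table, and those shown are the ones with a match to these motifs. Serpina3n and Psmb9, also higher in MECA-367 than in rat IgG, held no NF-kappa-B, STAT or AP-1 match in such a window. Neither did Acta2, Grem1, Col15a1, Lepr, Postn or the second start of Irf1. A match is a description of the letters only.

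Chemokines were higher in MECA-367 than in rat IgG for 6 of 16 measured. One of them, Ccl11, is a gene of the rule, so its levels are a description only. Cxcl10, which draws T cells, stood at 569, 942 and 1289 CPM (log2 ratio 1.18). Ccl7, a monocyte chemokine, had a log2 ratio of 1.18, which was −0.33 among members of 1000 to 2000 UMIs. The list's median of 0.31 was −0.23 there and −0.083 after thinning. Cxcl12, a stromal chemokine, and Cxcl13, which draws B cells, did not pass the fold, at 1852, 1412 and 1545 CPM and 950, 1123 and 942 CPM.

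Acute phase and STAT3 response genes were higher for 9 of 19 and lower for none, with a median of 0.60 that was 0.32 after thinning. Serpina3n was 0.89 higher on the log2 scale, but 0.25 at members of 1000 to 2000 UMIs, where the call was lost. Cebpd, a transcription factor of the acute phase, stood at 787, 1308 and 1903 CPM and the metallothionein Mt1 at 2036, 4497 and 3634. Hp and Lcn2, which neutrophils also express, were at 3.58, 10.9 and 61.5 CPM and 60.8, 19.6 and 103 CPM. Beside them, all other kept barcodes held 92.1, 129 and 360 CPM of Hp and 126, 160 and 1188 of Lcn2. S100a9, capped by the rule, was at 16.1, 15.2 and 48.2 CPM in members and 1509, 2301 and 11224 in the rest. The part of RNA from other cells in the rise of Hp and Lcn2 was not tested.

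Immediate-early and heat shock genes, which also respond to tissue handling, were higher for 10 of 33 and lower for none. Their median log2 ratio was 0.48, and 0.83 among members of 1000 to 2000 UMIs. Their summed share of members' UMIs was 2.98%, 2.98% and 4.202%. The Jun-family gene Jund stood at 1668, 1939 and 2947 CPM and Ier2 at 553, 733 and 1105. In deep-layer fibroblasts the summed share was 1.79%, 1.86% and 2.05%.

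Contractile genes were lower in MECA-367 for 7 of 11 and higher for none, with a median log2 ratio of −0.67. Acta2 stood at 494 CPM in rat IgG (437 to 556), 416 in DATK32 (359 to 479) and 181 in MECA-367 (161 to 204), so the intervals of rat IgG and DATK32 overlap and that of MECA-367 lies below both. Tagln, transgelin, was at 429, 490 and 188 CPM. Myl9, Tpm1, Mylk, Flna and Myh11 were the others, and the rule caps Myh11 itself. Acta2 held its call under all 12 alternatives, while Tagln lost it after thinning, with a log2 ratio of −0.56. Among members with a subepithelial UMI Acta2 was at 811, 452 and 229 CPM, and among those without at 299, 397 and 101, lower in MECA-367 on both sides. The share of members with over 0.5% of UMIs from contractile genes was 21.2%, 18.01% and 9.58%. Pericyte markers, at the 0.038%, 0.042% and 0.027% given above, and Kit, a marker of interstitial cells of Cajal, were also lowest in MECA-367; their part in the contractile result was not tested. Deep-layer fibroblasts had 115, 119 and 53.8 CPM of Acta2.

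Matrix genes were lower in the same comparison, by less. Collagen chains were lower for 4 of 22 (Col1a1, Col1a2, Col5a2 and Col6a3) and higher for none, with a median of −0.38. Col1a1, a chain of type I collagen, was at 1675, 1332 and 1102 CPM. As Col1a1 is a gene of the rule, its levels and its place in this count are a description only. Matrix glycoproteins and crosslinking enzymes were lower for 8 of 32, with a median of −0.34, among them elastin (Eln, 247, 268 and 141 CPM) and the crosslinker Loxl1 (125, 111 and 57.7 CPM). With TMM scaling these medians were −0.26 and −0.22. MHC class II genes were lower for 3 of 4, with H2-Aa at 93.0, 97.9 and 32.3 CPM in members and 321, 183 and 324 in all other kept barcodes.

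Interferon-stimulated genes were higher in MECA-367 than in rat IgG for 10 of 42 and lower for 1 (Ifit2), with a median of 0.38 that was 0.11 after thinning. MHC class I genes were higher for 5 of 20, namely H2-Q4, H2-Q6, H2-Q7, H2-T23 and Psmb9; reads of the similar H2-Q genes may be split. Ereg, a ligand of the EGF receptor, was 0.98 higher, at 769, 988 and 1522 CPM, but 0.58 at 1000 to 2000 UMIs, where the call was lost. Hgf, hepatocyte growth factor, was 1.02 lower on the log2 scale, at 234, 202 and 116 CPM. Il33, an alarmin, stood at 23.3, 71.8 and 52.6 CPM. Telocyte markers were lower for 2 of 13 (Wnt5a and Tnc).

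The genes furthest apart by the naming rule in this comparison were, in the higher direction, Gsta3, Ttyh1, Gstp1, Xdh, Hcar2, Bambi, Ccl2 and Msc. Gsta3 had 1, 9 and 108 UMIs, and its ratio between MECA-367 and rat IgG was 38.3 with a counting interval of 6.72 to 1525. Xdh, xanthine dehydrogenase, stood at 73.4, 135 and 246 CPM and was at 119, 187 and 329 in deep-layer fibroblasts. Msc, a transcription factor, was at 28.6, 28.3 and 86.2 CPM. Gstp1 has close copies among which reads may be split. In the lower direction they were Enah, an actin regulator, Acta2, Dync1i2, Ap2a2, Abi3bp, Ppt1, Tagln and Kirrel. Of these 16 genes 12 kept their call under every alternative run, and none reversed.

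**Figure D4:**
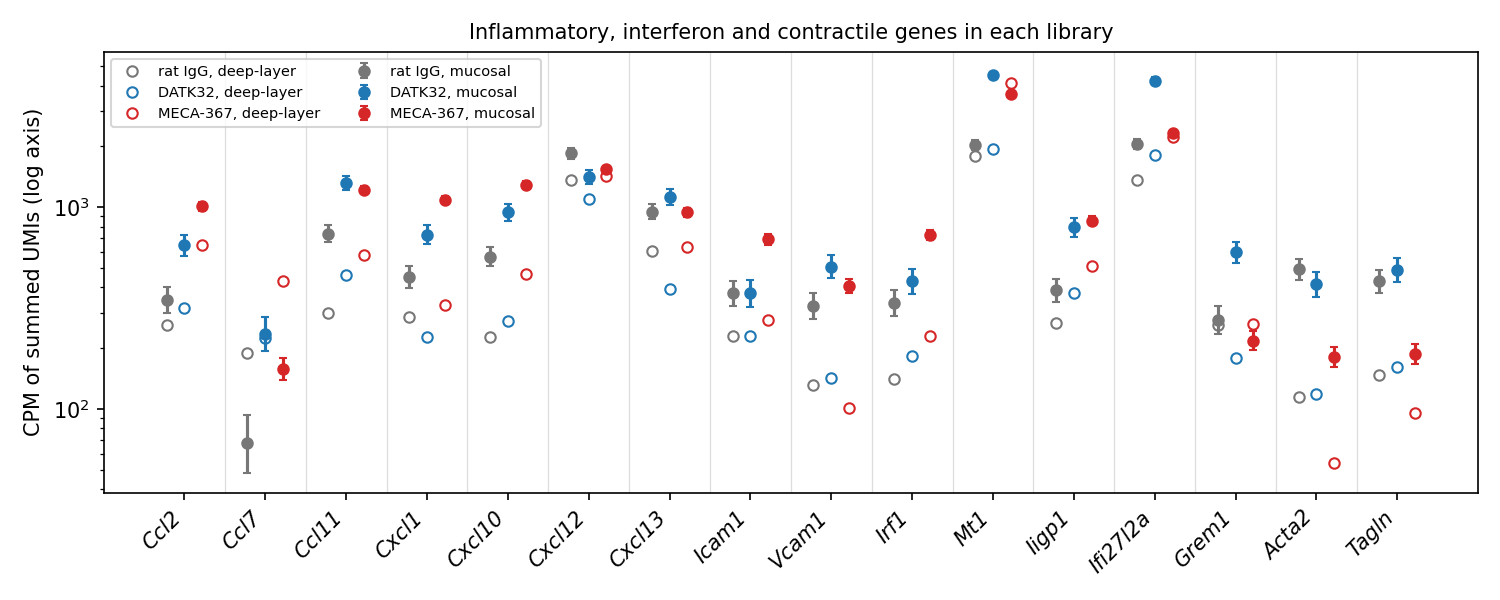
CPM (log axis) of inflammatory, interferon-related and contractile genes in mucosal (filled, exact Poisson 95% intervals) and deep-layer fibroblasts (open) of the 3 libraries. Ccl2, Cxcl1, Cxcl10 and Irf1 climb from rat IgG through DATK32 to MECA-367 in members, Ifi27l2a and Grem1 are highest in DATK32, and Acta2 and Tagln are lowest in MECA-367. Not every step of the climb passed the fold. Irf1 did not for DATK32 over rat IgG (log2 ratio 0.36), nor Cxcl1 (0.57) and Cxcl10 (0.45) for MECA-367 over DATK32. The last was −0.18 among members of 1000 to 2000 UMIs.

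Fewer genes were called between DATK32 and rat IgG than between MECA-367 and rat IgG. Metallothioneins, 7 interferon-stimulated genes and Grem1 were among the genes higher in DATK32. Members' UMIs summed to 459630 in DATK32 and 1577686 in MECA-367, so the calls were made at unequal depth. At the same fold fewer genes can pass in DATK32, so these counts do not rank the size of the differences. Of the 6418 genes 88 (1.37%) were higher in DATK32 and 83 (1.29%) lower, 2.66% in either direction, with a median log2 ratio of −0.03. Among members of 1000 to 2000 UMIs, where fewer UMIs and 3238 genes were measured, 56 were higher and 32 lower. With TMM scaling the share of calls that were higher went from 51.5% to 63.9%. DATK32 and MECA-367 were both set against the same rat IgG library, so their comparisons are not independent.

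Metallothioneins, which bind zinc and copper, and Grem1 were higher in DATK32 than in rat IgG. Mt1 stood at 2036 CPM in rat IgG (1920 to 2158), 4497 in DATK32 (4305 to 4695) and 3634 in MECA-367, and Mt2 at 501, 1025 and 887. Both were also called higher in MECA-367 than in rat IgG, with log2 ratios of 0.83 and 0.82. Mt1 in deep-layer fibroblasts was at 1795, 1946 and 4108 CPM, so there DATK32 lay near rat IgG. Grem1 was at 276 CPM in rat IgG (234 to 323), 596 in DATK32 (528 to 671) and 218 in MECA-367 (196 to 242); in deep-layer fibroblasts it was at 260, 178 and 264. Members of DATK32 thus had the highest Grem1 and deep-layer cells of DATK32 the lowest, a difference that was not tested.

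Interferon-stimulated genes were higher in DATK32 for 7 of 42 and lower for none, with a median log2 ratio of 0.46. They were Ifi27l2a, Iigp1, Igtp, Xaf1, Gbp2, Gbp7 and Cxcl10. Ifi27l2a stood at 2060, 4212 and 2322 CPM, higher in DATK32 than in either other library, and Iigp1, an interferon-inducible GTPase, at 387, 794 and 856 CPM. Both have near copies among which reads may be split. Psmb9, a subunit of the immunoproteasome, was at 68.0, 139 and 129 CPM and at 81.1, 90.6 and 164 in all other kept barcodes.

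Chemokines were higher in DATK32 than in rat IgG for 6 of 16 measured and lower for 2. Ccl7 stood at 68.0 CPM in rat IgG (48.1 to 93.3) and 235 in DATK32 (193 to 284), and Ccl2, Ccl11, Cxcl1, Cxcl5 and Cxcl10 were the others. Ccl11, as a gene of the rule, is counted here as a description only. Of the others, Ccl7 kept its call under every alternative. Cxcl1 lost it after thinning (log2 ratio 0.38) and at 1000 to 2000 UMIs (0.41), and Ccl2 at 1000 to 2000 UMIs (0.58). Cxcl10 lost it with the mitochondrial limit at 5% (0.49) and without Lepr and Postn in the rule (0.54). The list's median of 0.34 was 0.11 after thinning. The lower ones were Ccl3 and Ccl4, macrophage chemokines, with 33 and 40 UMIs in rat IgG members and 0 and 4 in DATK32. NF-kappa-B response genes were higher for 5 of 22 (Ccl2, Cxcl1, Sod2, Tnfaip2 and Vcam1), with a median of 0.19. The adhesion gene Vcam1 was at 324, 507 and 406 CPM.

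Telocyte markers were lower in DATK32 for 3 of 13 (Wnt5a, Bmp5 and Pdgfra), with a median log2 ratio of −0.40. Bmp5 stood at 499 CPM in rat IgG (442 to 561) and 326 in DATK32 (276 to 383). By the naming rule the lower genes were Ccn2, Lox, Kcnq1ot1, Foxn3, Sptan1, Emid1, Cped1 and Aldh1a1, and the higher ones Ccl7, Chl1, Mt1, Grem1, Iigp1, Ifi27l2a, Mt2 and Psmb9. Ccn2, a matricellular growth factor also known as CTGF, was at 175, 47.9 and 84.9 CPM, and lost its call after thinning (log2 ratio −0.71). Lox, lysyl oxidase, was at 131, 63.1 and 138 CPM. Kcnq1ot1 is antisense to Kcnq1, and the strand setting of the counting is not given in the sources used here. Of these 16 genes 6 kept their call under every alternative run: Ccl7, Mt1, Mt2, Grem1, Iigp1 and Ifi27l2a. No contractile or collagen gene passed the fold.

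Set directly against DATK32, MECA-367 members again had lower contractile genes and higher NF-kappa-B response genes. Of 6418 genes 146 (2.27%) were higher in MECA-367 and 199 (3.1%) lower, 5.38% in either direction, with a median log2 ratio of −0.05. TMM scaling moved the share of calls that were higher from 42.3% to 59.5%. Contractile genes were lower for 5 of 11 and higher for none, with a median of −0.67, and NF-kappa-B genes were higher for 10 of 22 and lower for 1 (Tnfaip2), with a median of 0.56 that was 0.33 at 1000 to 2000 UMIs. Immediate-early and heat shock genes were higher for 12 of 33, with a median of 0.41.

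Between the antibodies, interferon-stimulated genes were higher for 2 of 42 and lower for 4, with a median of −0.09. Irf1 and Gbp4 were the higher ones, while Ifi27l2a, Isg15, Xaf1 and Ifit1 were lower in MECA-367. Isg15, a ubiquitin-like modifier, stood at 115 CPM in DATK32 (86.4 to 151) and 71.6 in MECA-367 (59.0 to 86.1). The naming rule gave Gsta3, Msc, Aldh1a3, Ranbp9, Ttyh1, Pappa, Adamtsl2 and Gbp4 as higher and Abi3bp, Grem1, Tagln, Lgi2, Sulf2, Acta2, Tnfsf13b and Cd55 as lower. Pappa, a protease that releases insulin-like growth factors from their binding proteins, was at 351, 305 and 791 CPM, and Aldh1a3, which makes retinoic acid, at 91.3, 82.7 and 231. Tnfsf13b, the B cell survival factor BAFF, was at 107, 128 and 57.0 CPM. Of these 16 genes 11 kept their call under every alternative run.

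**Figure D5:**
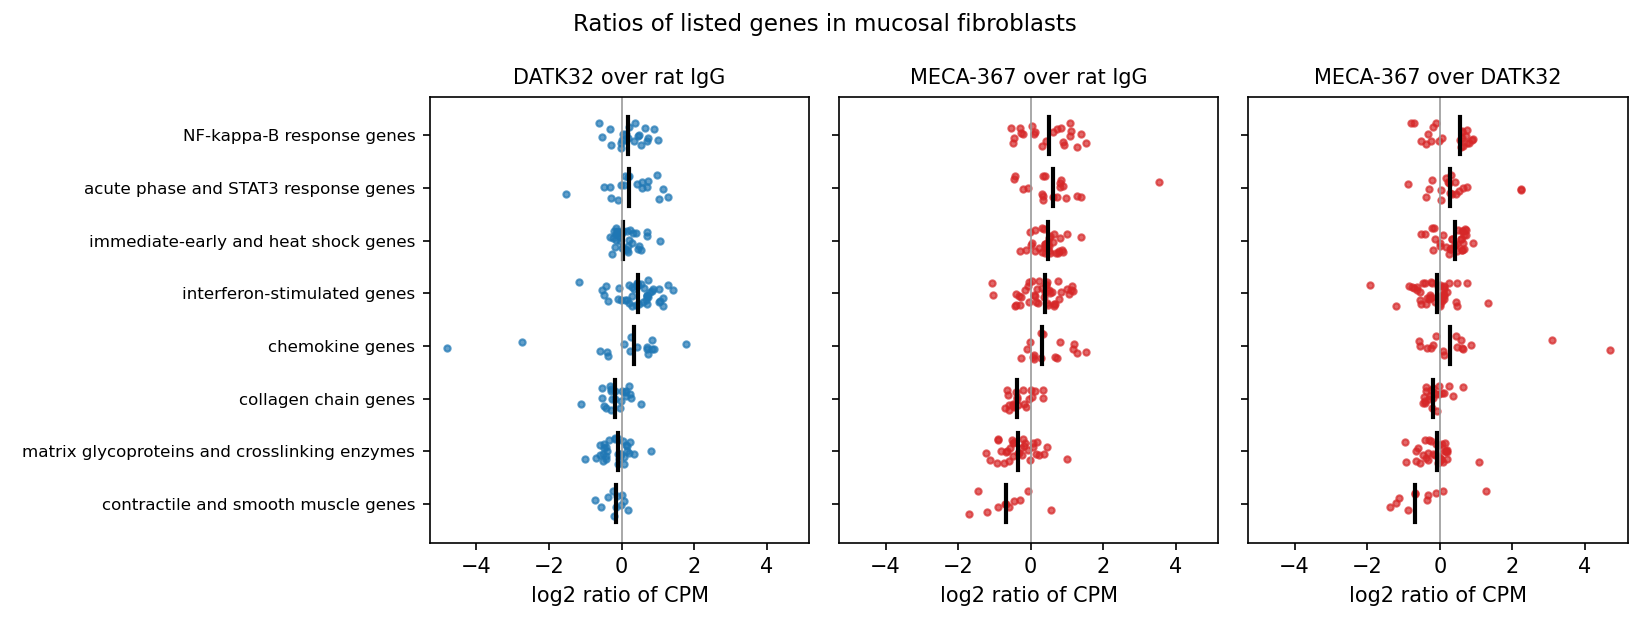
Log2 ratio of CPM in mucosal fibroblasts for each measured gene of 8 lists (points) and the list median (bar), in the 3 comparisons between libraries; the vertical line marks 0. The contractile median is −0.67 in both comparisons of MECA-367 and −0.15 for DATK32 over rat IgG, and the NF-kappa-B medians are 0.52, 0.56 and 0.19.

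Immunoglobulin and epithelial transcripts in members were lower in DATK32 and MECA-367 than in rat IgG. All 5 measured immunoglobulin constant genes were lower in each, with medians of −1.63 in DATK32 and −1.75 in MECA-367. Igkc stood at 7254, 2778 and 2796 CPM in members and 34326, 31811 and 43956 in all other kept barcodes. Immunoglobulin constant genes summed to 1.80%, 0.574% and 0.470% of members' UMIs, against 0.083%, 0.042% and 0.021% in the median member. Only 13, 2 and 6 members were above 0.5%, so the sums rest largely on few barcodes. Epithelial markers were lower for 3 of 7 in DATK32 and 5 of 7 in MECA-367, where the rule caps Krt8 and Epcam. Macrophage and monocyte markers summed to 0.147%, 0.170% and 0.239% of members' UMIs, with 1 of 5 measured higher in MECA-367 than in rat IgG (Plac8) and 1 lower (Ly6c2). Plac8 made up most of those sums, at 1511, 1750 and 2356 CPM in thinned members without Ccl11 and 1283, 1490 and 2280 with it. It was not particular to leukocytes: 74.4%, 75.0% and 87.7% of thinned members had a Plac8 UMI. The shares were 46.6%, 50.5% and 63.1% of leukocytes, and 30.7%, 27.4% and 43.0% of deep-layer fibroblasts. The part of free RNA and of doublets in these values was not tested.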

How the data were processed

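The authors deposited whole-number UMI counts of 32285 genes in every called barcode, made with Cell Ranger 6.0.2 on genome build mm10, per the submitters' processing notes; the labels' protocols give a 10x 3' v3.1 kit and 1 sequencing lane for all libraries. The deposited files hold 10826, 8445 and 8387 barcodes with 30359331, 28030376 and 27846540 UMIs (rat IgG, DATK32, MECA-367). From these counts, barcodes were kept and members chosen as stated, and counts were summed over members per library. Log2 ratios of CPM have 1 count added to each sum. The members and gene lists were chosen with earlier results of these data known. Between libraries, the text names the 8 highest and 8 lowest log2 ratios among genes past the fold with at least 100 counts in both libraries together, a CPM in members at least that in other barcodes, and no mitochondrial, ribosomal, haemoglobin, immunoglobulin, T cell receptor or clone name; against deep-layer cells, the 12 highest and lowest. Scrublet (scanpy 1.11.5) marked 1 barcode by its own threshold, so doublets remained; dropping the highest scores was an alternative, as were depth, mitochondrial limit, rule, scaling (edgeR 4.0.16), count minimum and cell weighting. The ratio step was tested on simulated data. RefSeq upstream sequences are on GRCm38.p6, the patch release of mm10.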

Additional observations from a re-analysis of the deposited data

How the results depend on the processing

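No paired analysis was possible because each group is 1 library. Under 12 alternatives, of which members of 1000 to 2000 UMIs was chosen after seeing the data, 107 recomputed shares and gene counts stayed within their limits and 27 moved. The division by subepithelial genes was also chosen after seeing the data. With at least 1000 UMIs and 500 genes, the log2 ratio of the share of kept barcodes was 0.24 for DATK32 over rat IgG and 1.70 for MECA-367 over rat IgG, and among fibroblasts −0.11 and 0.80. After thinning these were 0.22, 1.75 and, among fibroblasts for DATK32, −0.10. With a mitochondrial limit of 5%, MECA-367 was at 0.76 over rat IgG and 1.12 over DATK32 of kept barcodes, and at 0.53 and 0.70 among fibroblasts. Thinning gave 58 higher and 38 lower genes in DATK32 over rat IgG, 174 lower in MECA-367 over rat IgG, and 95 higher and 112 lower in MECA-367 over DATK32; members of 1000 to 2000 UMIs gave 56, 32, 86 and 125 for the first and last of these. TMM scaling gave 333 higher and 166 lower in MECA-367 over rat IgG. Against deep-layer fibroblasts, 104 genes were higher and 100 lower after thinning, 109 and 108 at 1000 to 2000 UMIs, and 117 higher with the 5% limit. Fewer barcodes, UMIs and genes enter the thinned and depth-matched settings. Otherwise the cause was not tested. Reversed values were the chemokine median, at −0.083 (thinned) and −0.23 (1000 to 2000 UMIs) for MECA-367 over rat IgG and −0.11 (minimum of 10 counts) and −0.26 (1000 to 2000 UMIs) over DATK32, and Ccl7 at −0.33 for MECA-367 over rat IgG. The 504 shallow rat IgG members limit every comparison with that library.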
